A study of Mus musculus with 4 samples.

Results

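Expression of 8 genes that mark epithelial or mesenchymal cell adhesion was measured in the stria vascularis (SV), the secretory tissue of the cochlear lateral wall, by single-cell and single-nucleus RNA-Seq. The genes were chosen by symbol: E-cadherin (Cdh1), Epcam, desmoplakin (Dsp) and prominin-2 (Prom2) on the epithelial side, N-cadherin (Cdh2), cadherin-11 (Cdh11) and vimentin (Vim) on the mesenchymal side, and Alcam, which cells of both kinds can carry. All 8 were listed in every library, among 27998 genes in each of 3 captures of whole cells and 48816 genes in 1 capture of nuclei. Both groups came from microdissected SV of inbred CBA/J mice at postnatal day 30, and the labels name no transgene or treatment. The cells were released with trypsin and the nuclei with a detergent buffer. Each capture was a suspension pooled from several mice, and barcodes were not tied to single animals, so that p-values do not measure the spread between animals.

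The SV is built of 3 cell layers. Marginal cells, of epithelial origin, line the endolymph and secrete potassium into it, and spindle and root cells are epithelial cells at the edges of the tissue. Intermediate cells are melanocyte-like cells of neural crest origin, and basal cells, of mesenchymal origin, are sealed by tight junctions and close the SV off from the spiral ligament. Classical cadherins join like cells through catenins that reach the actin cytoskeleton, and desmoplakin ties desmosomes to intermediate filaments. Epithelia typically carry E-cadherin and Epcam, whereas mesenchymal and neural crest cells typically carry N-cadherin, cadherin-11 and vimentin. Repressors of the Snail and Zeb families are known to bind the E-box CAGGTG in promoters of epithelial genes.

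The 250 bases before the RefSeq start of the 4 epithelial-layer genes with a promoter entry are shown because these genes were higher in the mean of the epithelial types than in basal-like cells, Alcam through the marginal-like cells. They read 5′ to 3′ on the gene's strand, from GRCm38.p6, and capitals mark CAGGTG or its reverse complement CACCTG. They cover chr17:87635729-87635978 plus (Epcam), chr16:52453082-52453331 minus (Alcam), chr2:127541418-127541667 minus (Prom2) and chr13:38151044-38151293 plus (Dsp).
Epcam: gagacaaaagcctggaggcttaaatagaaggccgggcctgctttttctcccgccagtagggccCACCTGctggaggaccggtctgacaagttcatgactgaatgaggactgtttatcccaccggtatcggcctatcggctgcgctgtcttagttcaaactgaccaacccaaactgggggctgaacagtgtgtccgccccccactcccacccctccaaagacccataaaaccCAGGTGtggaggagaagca
Alcam: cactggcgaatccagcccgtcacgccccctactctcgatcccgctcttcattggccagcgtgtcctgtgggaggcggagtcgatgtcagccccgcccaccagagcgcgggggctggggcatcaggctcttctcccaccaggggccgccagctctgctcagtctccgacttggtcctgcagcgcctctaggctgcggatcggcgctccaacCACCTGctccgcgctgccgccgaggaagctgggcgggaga
Prom2: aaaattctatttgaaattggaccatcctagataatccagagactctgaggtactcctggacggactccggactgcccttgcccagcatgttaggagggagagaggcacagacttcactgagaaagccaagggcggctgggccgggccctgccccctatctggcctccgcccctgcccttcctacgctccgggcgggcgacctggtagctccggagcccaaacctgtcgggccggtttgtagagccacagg
Dsp: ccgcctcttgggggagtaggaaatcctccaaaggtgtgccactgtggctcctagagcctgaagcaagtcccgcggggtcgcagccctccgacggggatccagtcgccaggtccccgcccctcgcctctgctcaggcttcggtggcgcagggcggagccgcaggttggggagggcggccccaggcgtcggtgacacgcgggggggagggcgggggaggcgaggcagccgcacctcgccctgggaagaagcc

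Both strands were searched for the 6 letters, with no other motif. Epcam held 2 matches, the first beginning 187 bases and the second 19 bases before the start, and Alcam held 1 match, 40 bases before it. The windows of Prom2, Dsp and Vim held none. Cdh1, Cdh2 and Cdh11 had no promoter entry and were not searched. Over all 32851 promoters in the table, 17.2% of windows of this length held the motif. A match is a run of letters and not a bound site.

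The genes lie, on GRCm38 (mm10) in the GENCODE annotation, at chr8:106603351-106670246 on the plus strand (Cdh1), chr17:87635979-87651129 plus (Epcam), chr13:38151294-38198577 plus (Dsp), chr2:127526473-127541467 minus (Prom2), chr18:16588877-16809246 minus (Cdh2), chr8:102632095-102785642 minus (Cdh11), chr2:13573927-13582826 plus (Vim) and chr16:52248996-52454074 minus (Alcam). An unspliced transcript model overlaps Dsp on the opposite strand and an antisense gene overlaps Cdh2, while 4 small models, a microRNA among them, lie within Cdh11 on its own strand. The counts cannot divide reads between Cdh11 and the models on its strand. By these positions the promoter windows of Alcam and Vim lie within the genes, and that of Prom2 does in part. For these genes the GENCODE start lies upstream of the RefSeq start from which the distances were counted.

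The captures of cells contained 392, 1358 and 1580 barcodes and the capture of nuclei 11057, with 2811309 to 8340882 UMIs per capture of cells and 22332501 UMIs in the nuclei. Clusters were named from marker lists that hold none of the 8 genes, and the 8 genes were kept out of the clustering. In cells, this gave 119 marginal-like cells (16, 67 and 36 by capture), 40 spindle/root-like cells (5, 18 and 17), 1008 intermediate-like cells (132, 449 and 427) and 116 basal-like cells (19, 54 and 43), whereas 1654 of 3152 cells stayed unnamed. In nuclei there were 2595 marginal-like, 209 spindle/root-like, 1472 intermediate-like and 690 basal-like nuclei among 9723. Marker RNA of other types was present in each type: the summed intermediate markers stood in marginal-like cells at 27.5% to 31.7% of their level in intermediate-like cells, and in basal-like cells at 34.0% to 41.6%. The marginal markers stood at 15.2% to 15.5% of their own level in intermediate-like cells and at 15.1% to 22.2% in basal-like cells. The captures of cells shared at most 6 barcodes with each other, and the nuclei shared 7 to 32 with the captures of cells. In capture 3, red cell markers were higher in each strial type (1654 to 3277 CPM) than in captures 1 and 2 (110 to 355 CPM).

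A level is given in CPM (the UMIs of a gene per 1e6 UMIs of its type), summed over the cells of the type in a capture, with the mean and SD over 3 captures. It cannot tell fewer positive cells from less RNA per cell. Levels of different genes were not compared. Differences are log2 fold changes over 12 sums, obtained by the quasi-likelihood test of edgeR with the capture as a block and with Benjamini-Hochberg adjusted p-values over 6402 genes, called at an adjusted p under 0.05. The p-values measure the spread between sums that is left after type and capture, with 6 residual degrees of freedom. The spread of each gene is estimated with the help of the other genes tested. The nuclei are 1 library with no test, and their intervals (95%, exact Poisson) cover counting error only.

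**Figure D1:**
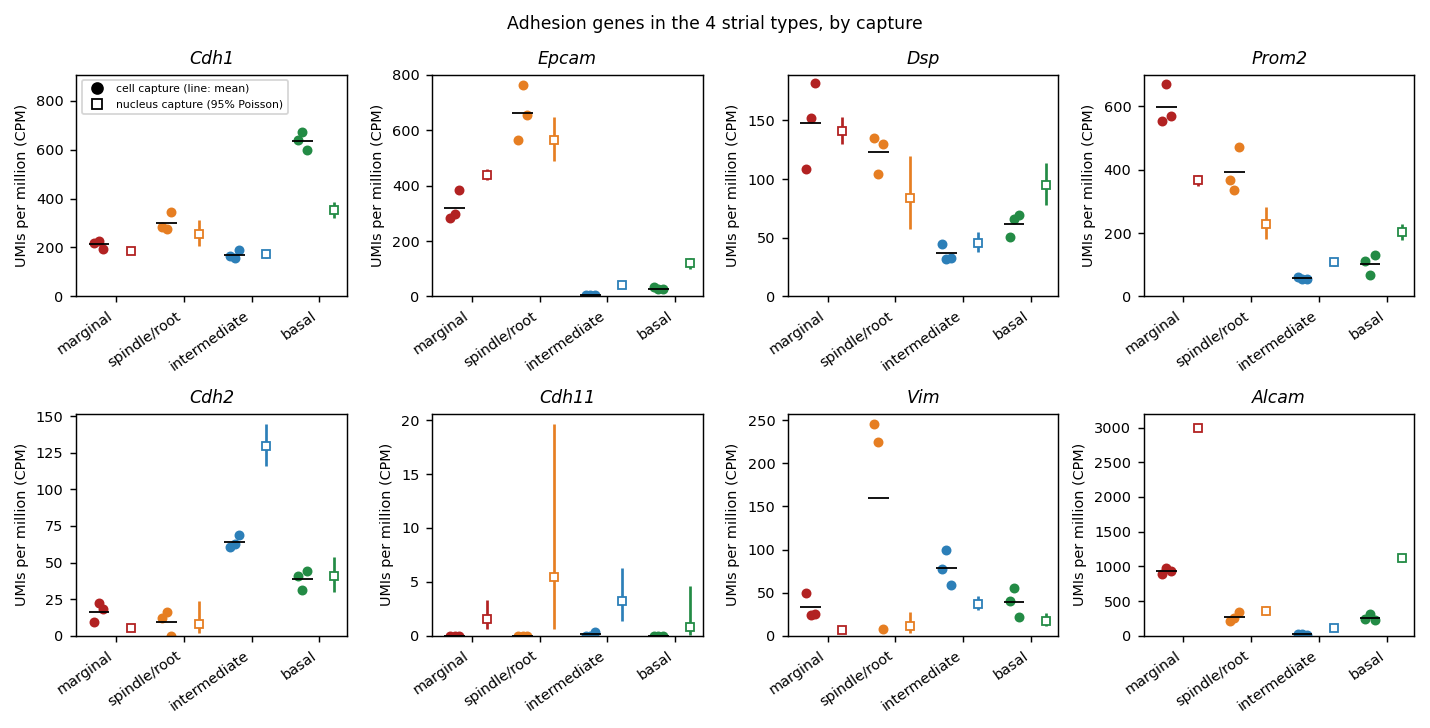
Level of each of the 8 adhesion genes (CPM, linear axis) in the 4 strial types. Filled points are the 3 captures of cells with their mean as a line, and open squares are the nuclei with exact 95% Poisson intervals. Cdh1 is highest in the basal type (596 to 672 CPM in cells), Epcam in the spindle/root type (564 to 763 CPM), Cdh2 in the intermediate type (60.7 to 68.8 CPM), and Cdh11 is at or near 0 in all.

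Cdh1, the cadherin of epithelial adherens junctions, was highest in the basal-like cells, which are of mesenchymal origin. It stood at 638, 672 and 596 CPM in captures 1, 2 and 3 in basal-like cells (635 ± 37.7, SD, n = 3), against 282, 275 and 343 CPM in spindle/root-like cells (300 ± 37.5). In marginal-like cells it stood at 218, 225 and 194 CPM (212 ± 16.0), and in intermediate-like cells at 164, 156 and 191 CPM (171 ± 18.2). The basal-like values lay above every other type in each capture. The mean of both epithelial types was below the basal-like level, with a log2 fold change of -1.40 (SE 0.13) and an adjusted p of 2.45e-14. Basal-like cells exceeded intermediate-like cells by 1.63 (SE 0.13, adjusted p = 6.85e-17). The epithelial types and the intermediate-like cells did not pass the test, with a difference of 0.22 (95% interval -0.04 to 0.49, adjusted p = 0.193). Without composition scaling that difference passed at 0.58 (adjusted p = 0.000264), but the median of all genes then moved by 0.35 in the same direction. Marginal-like and spindle/root-like cells did not pass either (-0.42, 95% interval -0.81 to -0.04, adjusted p = 0.112). Of the order basal, spindle/root, marginal, intermediate, read in CPM without composition scaling, only the basal step was called. Marginal-like cells alone did not differ from intermediate-like cells in the scaled test (0.0096, adjusted p = 0.973).

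The nuclei gave the same order for Cdh1, although the marginal-like and intermediate-like intervals overlapped. It stood at 352 CPM in basal-like nuclei (320 to 388), 255 in spindle/root-like nuclei (206 to 312), 187 in marginal-like nuclei (174 to 200) and 174 in intermediate-like nuclei (158 to 191). B cell-like nuclei, a type that should lack it, held 31.5 CPM (16.8 to 53.8). The log2 ratio of marginal-like to basal-like nuclei was -0.92 (-1.09 to -0.74), smaller in size than in cells. In each capture Cdh1 in basal-like cells was at 293% to 307% of its marginal-like level, while the marginal marker list there was at 15.1% to 22.2% of its own.

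Epcam, a surface adhesion molecule of epithelial cells, was highest in both epithelial types. Spindle/root-like cells held 564, 763 and 656 CPM (661 ± 99.5) and marginal-like cells 282, 297 and 384 CPM (321 ± 55.2). Basal-like cells held 33.8, 25.2 and 25.1 CPM (28.0 ± 5.0), and intermediate-like cells 5.28, 5.54 and 5.67 CPM (5.49 ± 0.20). The 4 types did not overlap in any pair. The epithelial types were higher than basal-like cells by 4.02 (SE 0.20, adjusted p = 9.85e-27) and higher than intermediate-like cells by 6.03 (SE 0.18, adjusted p = 1.19e-38). Epcam passed the filter on low counts through the epithelial sums, so that the direction of both differences followed from the filter. Marginal-like cells were lower than spindle/root-like cells by a fold change of -1.01 (SE 0.15, adjusted p = 1.21e-07). Epcam in basal-like cells was at 6.54% to 12.0% of its marginal-like level, below the 15.1% to 22.2% of the marginal marker list, and in intermediate-like cells at 1.48% to 1.87%, below the 15.2% to 15.5% of that list.

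Basal-like cells exceeded intermediate-like cells in Epcam by 2.02 (SE 0.36, adjusted p = 4.33e-06), but this difference turned with the choice of basal-like cells. The basal-like cells fell into a cluster of 59 cells and a cluster of 57 cells. The first held 14161 CPM of intermediate markers and 3413 CPM of marginal markers, and the second 3702 and 1415 CPM. Epcam stood at 44.6 CPM in the first (32 UMIs) and 3.75 CPM in the second (2 UMIs). With the second alone the difference was -0.82 (adjusted p = 0.542), and with 20 components in the clustering it was -0.93 (adjusted p = 0.371). The part of this marker RNA in the difference was not tested.

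In nuclei Epcam stood at 565 CPM in spindle/root-like (491 to 647), 439 in marginal-like (420 to 459), 119 in basal-like (100 to 140) and 42.1 in intermediate-like nuclei (34.4 to 51.0), against 33.9 CPM in B cell-like nuclei (18.5 to 56.9). The order was that of the cells, and the intermediate-like interval overlapped that of the B cell-like nuclei. In the 342 basal-like nuclei without a UMI of 4 marginal markers, the log2 ratio of basal-like to intermediate-like Epcam was 0.38 (-0.26 to 0.97), against 1.50 (1.12 to 1.87) in all basal-like nuclei. The intermediate-like nuclei were not selected in this way, though marginal markers stood there at 17.8% of their own level. Such a selection can also favour nuclei with fewer UMIs, so that these 2 ratios are not like for like.

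Prom2, a membrane glycoprotein of surface protrusions in epithelial cells, was higher in marginal-like than in other strial cells. They held 554, 669 and 571 CPM (598 ± 62.3), and spindle/root-like cells 368, 335 and 473 CPM (392 ± 71.8). Basal-like cells held 111, 66.1 and 132 CPM (103 ± 33.7) and intermediate-like cells 60.7, 55.7 and 53.7 CPM (56.7 ± 3.6). No pair of types overlapped across captures. Epithelial types exceeded basal-like cells by 2.26 (SE 0.17, adjusted p = 2.48e-17) and intermediate-like cells by 2.77 (SE 0.15, adjusted p = 8.9e-25), and marginal-like exceeded spindle/root-like cells by 0.70 (SE 0.17, adjusted p = 0.00134). Without capture 2 the last difference was 0.50 (adjusted p = 0.111). In the marginal-like cluster with the least intermediate marker RNA (864 CPM), Prom2 stood at 365 CPM (283 to 465), beside 388 CPM (329 to 454) in the spindle/root-like cluster.

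The basal-like excess of Prom2 over intermediate-like cells, 0.51 (SE 0.20, adjusted p = 0.0397), did not hold its direction. Prom2 stood at 142 CPM in the basal-like cluster with more intermediate and marginal marker RNA and at 28.1 CPM in the other. With the latter alone the difference was -1.30 (adjusted p = 0.00207), and with 20 components -0.81 (adjusted p = 0.00998). In nuclei Prom2 stood at 366 CPM in marginal-like (348 to 384), 228 in spindle/root-like (182 to 282), 203 in basal-like (178 to 230) and 108 in intermediate-like nuclei (95.7 to 122), with 84.8 CPM in B cell-like nuclei (59.0 to 118). The spindle/root-like and basal-like intervals overlapped there, as did those of intermediate-like and B cell-like nuclei.

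Dsp, the plaque protein of desmosomes, was higher in both epithelial types than in the other layers. Marginal-like cells held 109, 152 and 182 CPM (148 ± 36.5) and spindle/root-like cells 135, 104 and 130 CPM (123 ± 16.4), which overlapped. Basal-like cells held 50.6, 66.1 and 69.1 CPM (61.9 ± 9.9) and intermediate-like cells 44.9, 32.2 and 32.9 CPM (36.6 ± 7.1). The epithelial types exceeded basal-like cells by 1.02 (SE 0.22, adjusted p = 0.000103) and intermediate-like cells by 1.60 (SE 0.18, adjusted p = 2.53e-11). Marginal-like and spindle/root-like cells did not pass the test (0.42, 95% interval -0.08 to 0.92, adjusted p = 0.248). The basal-like excess over intermediate-like cells, 0.58 (SE 0.22, adjusted p = 0.0300), was lost without the capture as a block (0.55, adjusted p = 0.0514), without capture 2 (adjusted p = 0.342) and without capture 3 (adjusted p = 0.192).

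In nuclei Dsp stood at 141 CPM in marginal-like (130 to 153), 84.2 in spindle/root-like (57.2 to 119), 94.8 in basal-like (78.2 to 114) and 45.7 in intermediate-like nuclei (37.7 to 54.9). The order of spindle/root-like and basal-like nuclei was thus the reverse of that in cells, with a log2 ratio of -0.17 (-0.79 to 0.41) that includes 0. B cell-like nuclei held 31.5 CPM of Dsp (16.8 to 53.8), overlapping the intermediate-like interval.

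Cdh2, the cadherin of neural and mesenchymal cells, was highest in the neural crest layer and not in the mesenchymal one. Intermediate-like cells held 60.7, 62.6 and 68.8 CPM (64.0 ± 4.2) and basal-like cells 40.5, 31.5 and 43.9 CPM (38.6 ± 6.5). Marginal-like cells held 9.1, 22.5 and 17.9 CPM (16.5 ± 6.8), and spindle/root-like cells 12.3, 16.5 and 0 CPM (9.6 ± 8.6) from 4 UMIs in all. Intermediate-like cells lay above the other types in every capture. The epithelial types were lower than intermediate-like cells by a fold change of -2.54 (SE 0.28, adjusted p = 1.09e-11), and basal-like cells were lower than intermediate-like cells by one of -1.06 (SE 0.23, adjusted p = 0.000122). Cdh2 passed the filter on low counts only through the intermediate-like and basal-like sums. Its direction in both epithelial comparisons was thus not independent of the filter.

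The epithelial types were also lower in Cdh2 than basal-like cells (-1.48, SE 0.40, adjusted p = 0.00251), and this call depended on the basal-like cells used. Cdh2 stood at 54.4 CPM in the basal-like cluster with 14161 CPM of intermediate markers and at 13.1 CPM in the cluster with 3702 CPM. With the latter alone the difference from the epithelial types was 0.03 (adjusted p = 0.984), and that from intermediate-like cells was -2.59. The call was also lost without capture 3 (-1.07, adjusted p = 0.0788). In nuclei Cdh2 stood at 130 CPM in intermediate-like (116 to 144), 40.7 in basal-like (30.1 to 53.8), 8.14 in spindle/root-like (1.68 to 23.8) and 5.47 in marginal-like nuclei (3.51 to 8.15), and at 7.27 CPM in B cell-like nuclei (1.50 to 21.2). Intermediate markers stood at 15.4% of their own level in basal-like nuclei and at 4.3% in marginal-like nuclei.

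Cdh11, a cadherin of mesenchymal cells, was not detected in basal-like cells. There were 0 UMIs among 1250591 UMIs of basal-like cells, which allows up to 2.40 CPM (a count of 3), 0 UMIs in marginal-like and in spindle/root-like cells, and 1 UMI in 1008 intermediate-like cells. Its counts were too low to be tested. The nuclei held 1 UMI in basal-like, 2 in spindle/root-like, 7 in marginal-like and 8 in intermediate-like nuclei, all at or under 5.43 CPM. Fibrocyte-like cells, a connective tissue type, held 21 UMIs of Cdh11 in 41 cells (88.9 CPM, 55.0 to 136), and fibrocyte-like nuclei held 78.3 CPM (43.8 to 129), so that the gene was measurable in both kinds of library.

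Vim, the intermediate filament protein of mesenchymal cells, was low in the basal-like cells and varied between captures. Intermediate-like cells held 77.4, 99.7 and 58.9 CPM (78.7 ± 20.4) and basal-like cells 40.5, 55.0 and 22 CPM (39.2 ± 16.6). Marginal-like cells held 50.0, 23.9 and 25.6 CPM (33.2 ± 14.6). Spindle/root-like cells held 245 and 225 CPM in captures 1 and 2 but 7.62 CPM, from 1 UMI, in capture 3 (159 ± 132), so that they overlapped every other type. Basal-like cells were lower than intermediate-like cells by a fold change of -1.27 (SE 0.38, adjusted p = 0.0203), which was lost without capture 1 (-1.27, adjusted p = 0.0778) and without the block (-1.17, adjusted p = 0.168).

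The mean of both epithelial types did not pass the test in Vim against basal-like cells (0.63, 95% interval -0.37 to 1.63, adjusted p = 0.341) or intermediate-like cells (-0.64, 95% interval -1.32 to 0.05, adjusted p = 0.139). Marginal-like cells alone were lower than intermediate-like cells (-1.83, SE 0.41, adjusted p = 0.00356). They were lower than spindle/root-like cells by -2.38 (SE 0.55, adjusted p = 0.00771), a call lost without capture 1 (-2.33, adjusted p = 0.0583), without capture 2 (-1.39, adjusted p = 0.158) and without the block (adjusted p = 0.0710). In nuclei Vim stood at 37.3 CPM in intermediate-like (30.1 to 45.7), 17.5 in basal-like (10.8 to 26.7), 10.9 in spindle/root-like (2.96 to 27.8) and 6.84 in marginal-like nuclei (4.62 to 9.77). Vim was lower in nuclei than in cells in the other types as well, for example at 20.9 CPM (5.69 to 53.5) in fibrocyte-like nuclei against 351 CPM in fibrocyte-like cells.

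Alcam, an immunoglobulin-type adhesion molecule, was highest in marginal-like cells and lowest in intermediate-like cells. Marginal-like cells held 886, 969 and 931 CPM (929 ± 41.7). Spindle/root-like cells held 209, 258 and 343 CPM (270 ± 68.0) and basal-like cells 246, 311 and 220 CPM (259 ± 47.2), which overlapped. Intermediate-like cells held 19.4, 21.5 and 12.5 CPM (17.8 ± 4.7). The epithelial types exceeded basal-like cells by 0.88 (SE 0.15, adjusted p = 2.58e-06), but this mean joined unequal types: marginal-like cells exceeded basal-like cells by 1.79 (SE 0.15, adjusted p = 1.3e-16), whereas spindle/root-like and basal-like cells did not pass the test (-0.04, 95% interval -0.44 to 0.36, adjusted p = 0.912).

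Alcam in basal-like cells exceeded that in intermediate-like cells by 3.63 (SE 0.19, adjusted p = 2.3e-26), and marginal-like exceeded spindle/root-like cells by 1.83 (SE 0.18, adjusted p = 2.68e-13). No intermediate-like sum carried Alcam past the filter on low counts. Its direction against intermediate-like cells was thus not independent of the filter. Unlike Epcam, Alcam was higher in the basal-like cluster with less marker RNA of other types (360 against 208 CPM). Its level in intermediate-like cells was 1.34% to 2.21% of the marginal-like level. In nuclei it stood at 2994 CPM in marginal-like, 1115 in basal-like, 356 in spindle/root-like (297 to 422) and 104 in intermediate-like nuclei (92.0 to 118), with 109 CPM in B cell-like nuclei (79.5 to 146). The log2 ratio of spindle/root-like to basal-like nuclei was -1.65 (-1.92 to -1.39), a difference of a size outside the interval found in cells. Marginal markers stood at 30.9% of their own level in basal-like nuclei, a higher share than in spindle/root-like nuclei. The part of this marker RNA in the Alcam difference between these nuclei was not tested.

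**Figure D2:**
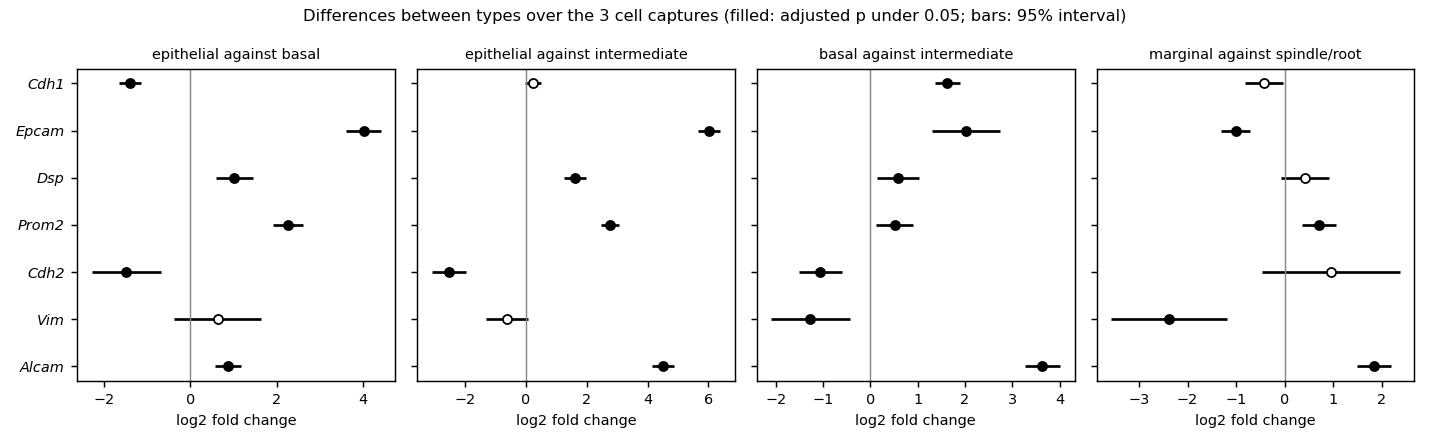
Log2 fold change of the 7 tested adhesion genes in 4 comparisons over the 3 captures of cells, with 95% intervals and filled points where the adjusted p was under 0.05. Epcam, Dsp and Prom2 lie to the right of 0 in both epithelial comparisons, and Cdh1 lies at -1.40 against basal-like and at 0.22 against intermediate-like cells.

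Set out by layer, 6 of the 7 tested genes were called between the epithelial types and basal-like cells, 4 higher (Epcam, Dsp, Prom2, Alcam) and 2 lower (Cdh1, Cdh2), where 31.6% of all genes tested were called. Between the epithelial types and intermediate-like cells 5 were called, 4 higher (Epcam, Dsp, Prom2, Alcam) and 1 lower (Cdh2), against 38.5% of all genes. The direction of Epcam in both epithelial comparisons followed from the filter on low counts. The directions of Cdh2 in both, and of Alcam against intermediate-like cells, were not independent of that filter. Between basal-like and intermediate-like cells all 7 were called, 5 higher (Cdh1, Epcam, Dsp, Prom2, Alcam) and 2 lower (Cdh2, Vim), against 35.1% of all genes, and DESeq2 called only Cdh1, Epcam and Alcam. Over all genes DESeq2 also called fewer in this comparison, 1547 against 2245 with edgeR. Between marginal-like and spindle/root-like cells 4 were called, 2 higher (Prom2, Alcam; 8.9% of all genes were higher) and 2 lower (Epcam, Vim; 12.5%), against 21.4% of all genes. Taken singly, marginal-like cells differed from basal-like cells in 6 genes (32.7% of all genes), all but Vim, and from intermediate-like cells in 6 (36%), all but Cdh1. Spindle/root-like cells differed from basal-like cells in 6 (27.9%), all but Alcam, and from intermediate-like cells in 5 (33.9%), all but Cdh1 and Vim. The Vim call between spindle/root-like and basal-like cells did not hold its direction in capture 3. The capture values did not overlap for 7 of the 7 genes between marginal-like and intermediate-like cells (50.5% of all genes) and between intermediate-like and basal-like cells (45.4%). They did not overlap for 6 genes between marginal-like and basal-like (41.3%), 6 between spindle/root-like and intermediate-like (47.1%), 5 between spindle/root-like and basal-like (39%) and 4 between marginal-like and spindle/root-like cells (33.2%). The capture values are CPM without composition scaling. For Cdh1 the closest values were 194 CPM in marginal-like and 191 CPM in intermediate-like cells, both in capture 3. With scaling, the edgeR test of Cdh1 between these 2 types did not pass (0.0096, adjusted p = 0.973). These comparisons share sums and are not independent. Against the grouping by which the genes were chosen, Cdh1 was highest in the basal-like cells, Cdh2 was higher in intermediate-like than in basal-like cells, and Cdh11 was at or near 0 in every strial type.

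The share of cells with at least 1 UMI was read at equal depth, after each cell was thinned to 2000 UMIs and each nucleus to 500. Thinning left out 2 marginal-like, 3 spindle/root-like, 36 intermediate-like, 4 basal-like and 8 B cell-like cells. Median depths were 11577 UMIs in marginal-like, 7594.5 in spindle/root-like, 6144.5 in intermediate-like and 10731.5 in basal-like cells, and 3006 in B cell-like cells. Cdh1 was found in 68.8% of thinned basal-like cells, 33.3% of marginal-like, 32.4% of spindle/root-like and 22.1% of intermediate-like cells, and in 3.1% of B cell-like cells (93.1%, 80.7%, 60%, 51.1% and 5.0% unthinned). Epcam was found in 67.6% of spindle/root-like and 54.7% of marginal-like cells but in 3.6% of basal-like and 1.3% of intermediate-like cells (85.0%, 95%, 13.8% and 3.7% unthinned), and in 0 of 32 thinned B cell-like cells (exact binomial 95% upper bound 10.9%). Alcam was found in 81.2% of marginal-like, 39.3% of basal-like, 21.6% of spindle/root-like and 3.0% of intermediate-like cells (99.2%, 76.7%, 30% and 10% unthinned), and in 3.1% of B cell-like cells. The B cell-like cells were too few to set a background for these low shares.

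**Figure D3:**
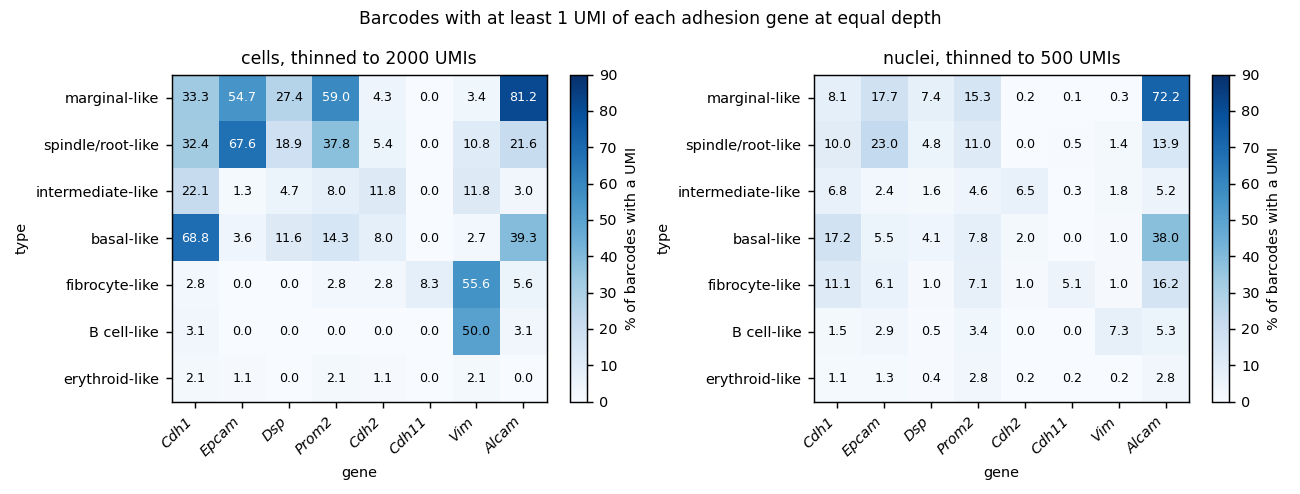
Percent of barcodes with at least 1 UMI of each adhesion gene, in cells thinned to 2000 UMIs and nuclei thinned to 500 UMIs, in the strial types and in fibrocyte-like, B cell-like and erythroid-like barcodes. In both panels Cdh1 is most frequent in the basal-like row (68.8% and 17.2%) and Alcam in the marginal-like row (81.2% and 72.2%), and Cdh11 appears mainly in the fibrocyte-like row.

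Within a type the genes followed the marker RNA of its clusters to different degrees. The marginal-like cells fell into clusters of 56, 37 and 26 cells with 10452, 4195 and 864 CPM of intermediate markers. Across them Cdh1 stood at 247, 200 and 111 CPM and Cdh2 at 28.7, 8.0 and 0 CPM, whereas Epcam stood at 278, 312 and 515 CPM and Alcam at 900, 939 and 1140 CPM. Cdh1 and Cdh2 were thus highest where intermediate marker RNA was highest, and Epcam and Alcam lowest. The same clusters had median shares of mitochondrial UMIs of 28.2%, 32.0% and 10.5%. Their median depths were 13969, 10783 and 6619 UMIs, and the part of these in the differences was not tested. Prom2 stood at 630, 725 and 365 CPM and Dsp at 172, 152 and 77.5 CPM in the same order, both lowest in the cluster with the least intermediate marker RNA. Both intermediate-like clusters, of 573 and 435 cells, held Cdh1 at 136 and 205 CPM and Vim at 105 and 55.2 CPM. Their median shares of mitochondrial UMIs were 18.1% and 44.4% and their intermediate markers 31309 and 19215 CPM, and the part of these in the difference was not tested. The clusters share captures and were drawn from the same cells, and these differences were not tested.

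**Figure D4:**
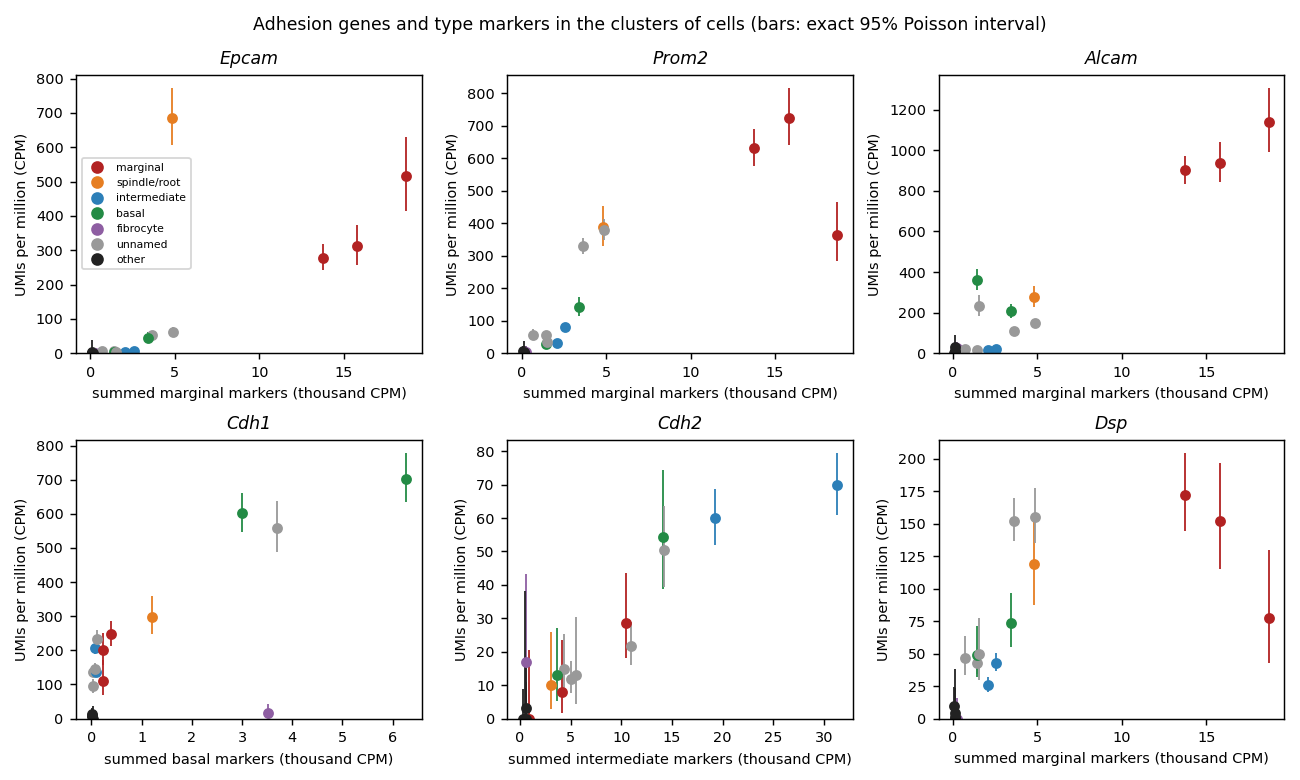
Level of 6 adhesion genes (CPM) in each cluster of at least 20 cells against the summed level of a marker list (CPM, scaled down on the axis), with exact 95% Poisson intervals and clusters coloured by name. The 3 marginal clusters lie above all others in Alcam (900 to 1140 CPM) but not in Epcam, where the spindle/root cluster is higher, both basal clusters hold Cdh1 at 601 and 703 CPM, and Cdh2 is higher in clusters with more intermediate marker RNA.

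Of 73 other adhesion genes on a list of cadherins, catenins, desmosome parts, epithelial regulators, immunoglobulin-type molecules and mesenchymal genes, 32 passed the filter on low counts. A gene that passed through the type where it is high had to differ, so that the counts and medians below describe those 32 genes and not the list. Against basal-like cells 14 of the 32 were higher in the epithelial types and 12 lower, where 985 of 6402 genes (15.4%) were higher and 1035 (16.2%) lower. Against intermediate-like cells 22 were higher and 6 lower, where 1342 of all genes (21.0%) were higher and 1124 (17.6%) lower. The median log2 fold changes over the 32 genes were 0.44 and 2.38, beside 0.03 and 0.02 over all genes tested. Without composition scaling the epithelial types were higher in 77.8% of all genes called against intermediate-like cells, in place of 54.4%.

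Of 14 epithelial surface genes and regulators, 8 passed the filter, of which 7 were higher in the epithelial types against basal-like and 7 against intermediate-like cells. Those at or near 0 in the other types passed through the epithelial sums, so that their direction was fixed and the count is no support for the list. Spint1, an inhibitor of membrane serine proteases, stood at 115 ± 27.0 CPM in marginal-like and 108 ± 32.1 in spindle/root-like cells, against 10.4 ± 8.6 in basal-like and 0.96 ± 0.89 in intermediate-like cells. Crb3, an apical polarity protein, stood at 68.3 ± 6.8 and 85.2 ± 40.9 CPM in the epithelial types and at 0.52 ± 0.91 in basal-like cells. Cxadr, a junctional receptor, stood at 16.5 ± 6.8 CPM in marginal-like and 87.0 ± 34.6 in spindle/root-like cells and under 1 CPM in the other types.

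Of 16 mesenchymal genes on the list, 5 passed the filter, and these were lower in the epithelial types than in basal-like cells. Fn1 and Nes had their highest levels in the basal-like sums and passed through them, so that their direction followed from the filter and the count is no support for the list. Among the others were Zeb2 (-3.30, SE 0.36, adjusted p = 6.61e-12) and Zeb1 (-1.74, SE 0.41, adjusted p = 0.000474), repressors of epithelial genes. Both passed the filter only through basal-like and intermediate-like sums. Their direction against the epithelial types was thus not independent of the filter. Basal-like sums thus held the highest Cdh1 and Zeb2 at 86.9 ± 8.0 CPM, against 70.9 ± 3.8 in intermediate-like cells. Zeb2 stood at 16.7 ± 8.0 CPM in marginal-like and 3.66 ± 6.3 CPM in spindle/root-like cells. Sums cannot show whether Cdh1 and Zeb2 were in the same cells. Intermediate markers stood at 34.0% to 41.6% of their own level in basal-like cells, and the part of this marker RNA in basal-like Zeb1 and Zeb2 was not tested. Basal-like and intermediate-like cells did not pass the test in Zeb2 (0.01, adjusted p = 0.971) or Zeb1 (-0.10, adjusted p = 0.813). Fibronectin (Fn1) stood at 233 ± 40.3 CPM in basal-like cells and at 11.7 ± 14.2 CPM or less in the other types, and nestin (Nes), an intermediate filament protein, at 49.7 ± 16.7 CPM in basal-like and 15.1 ± 16.7 CPM in spindle/root-like cells. Against intermediate-like cells the epithelial types were higher in 3 of the 5 mesenchymal genes and lower in 2, Zeb1 and Zeb2. Fn1 and Nes, among the 3, were low on both sides of this comparison. They stood at 2.09 and 0.13 CPM in intermediate-like and at 3.75 and 1.98 CPM in marginal-like cells. In spindle/root-like cells both were at 0 CPM in the lowest capture.

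Catenins and desmosome parts, the partners of Cdh1 and Dsp, were divided. Beta-catenin (Ctnnb1) was lower in the epithelial types than in basal-like (-1.44, SE 0.13, adjusted p = 1.85e-14) and intermediate-like cells (-1.47, SE 0.13, adjusted p = 1.1e-15). Plakoglobin (Jup), which serves both adherens junctions and desmosomes, was highest in basal-like cells at 163 ± 12.4 CPM, against 65.4 ± 10.4 in marginal-like cells (epithelial types against basal-like -1.14, SE 0.18, adjusted p = 5.22e-07). Alpha-catenin (Ctnna1) and the catenin Ctnnd1 did not pass the test between the mean of the epithelial types and basal-like cells (0.25 and 0.03). Ctnnd1 still stood at 88.0 ± 22.6 CPM in marginal-like and 266 ± 33.9 in spindle/root-like cells, around 139 ± 42.6 in basal-like cells. Ctnna1 and Ctnnd1 were both higher in the epithelial types than in intermediate-like cells (1.01 and 1.38).

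The plakophilins, which anchor desmosomal cadherins, differed by type. Pkp1 stood at 88.2 ± 11.3 CPM in basal-like and 22.8 ± 12.1 in spindle/root-like cells and under 1 CPM elsewhere, whereas Pkp2 stood at 40.0 ± 8.2 CPM in spindle/root-like and 6.22 ± 5.5 in marginal-like cells with no UMI in basal-like cells. In spindle/root-like cells Pkp1 rested on 3, 3 and 2 UMIs by capture and Pkp2 on 4, 6 and 5. Pkp1 passed the filter through the basal-like sums and Pkp2 through the spindle/root-like sums, so that these directions followed from the filter. Desmoglein-2 (Dsg2), the desmosomal cadherin, stood at 43.4 ± 12.7 CPM in marginal-like and 41.9 ± 50.6 in spindle/root-like cells (0 in the lowest capture). Basal-like cells held 5.32 ± 1.7 CPM (epithelial types against basal-like 2.63, SE 0.62, adjusted p = 0.000525). Dsg2 passed the filter on low counts through the marginal-like sums, so that its direction followed from the filter. Pkp4 was lower in the mean of the epithelial types than in basal-like cells (-0.75, SE 0.16, adjusted p = 0.000217), a mean that joined unequal types: marginal-like cells were lower than basal-like cells (-1.40, adjusted p = 9.37e-09), whereas spindle/root-like cells did not pass the test (-0.09, 95% interval -0.51 to 0.33, adjusted p = 0.803).

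Among immunoglobulin-type molecules, the junctional adhesion molecules also differed in level by type. F11r exceeded basal-like cells by 3.31 (SE 0.30, adjusted p = 9.31e-15) and intermediate-like cells by 5.62 (SE 0.28, adjusted p = 8.37e-27) in the epithelial types. It passed the filter on low counts through the epithelial sums, so that its direction followed from the filter and is no support for the list. Jam3 stood at 53.5 ± 6.2 CPM in basal-like cells and at 5.49 ± 9.5 CPM or less in the others, and Jam2 was highest in intermediate-like cells at 168 ± 13.1 CPM. Ncam1, a neural adhesion molecule, was likewise highest in intermediate-like cells at 275 ± 23.2 CPM, as was Cdh19, a cadherin of neural crest derivatives, at 86.2 ± 6.9 CPM. L1cam was found almost only in spindle/root-like cells (41.4 ± 6.9 CPM). Nectin-3 (Pvrl3) stood at 46.9 ± 9.9 CPM in marginal-like and 5.47 ± 4.0 CPM in basal-like cells. Jam3 passed the filter through the basal-like sums, L1cam through the spindle/root-like sums and Pvrl3 through the epithelial sums. Their directions thus followed from the filter as well.

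**Figure D5:**
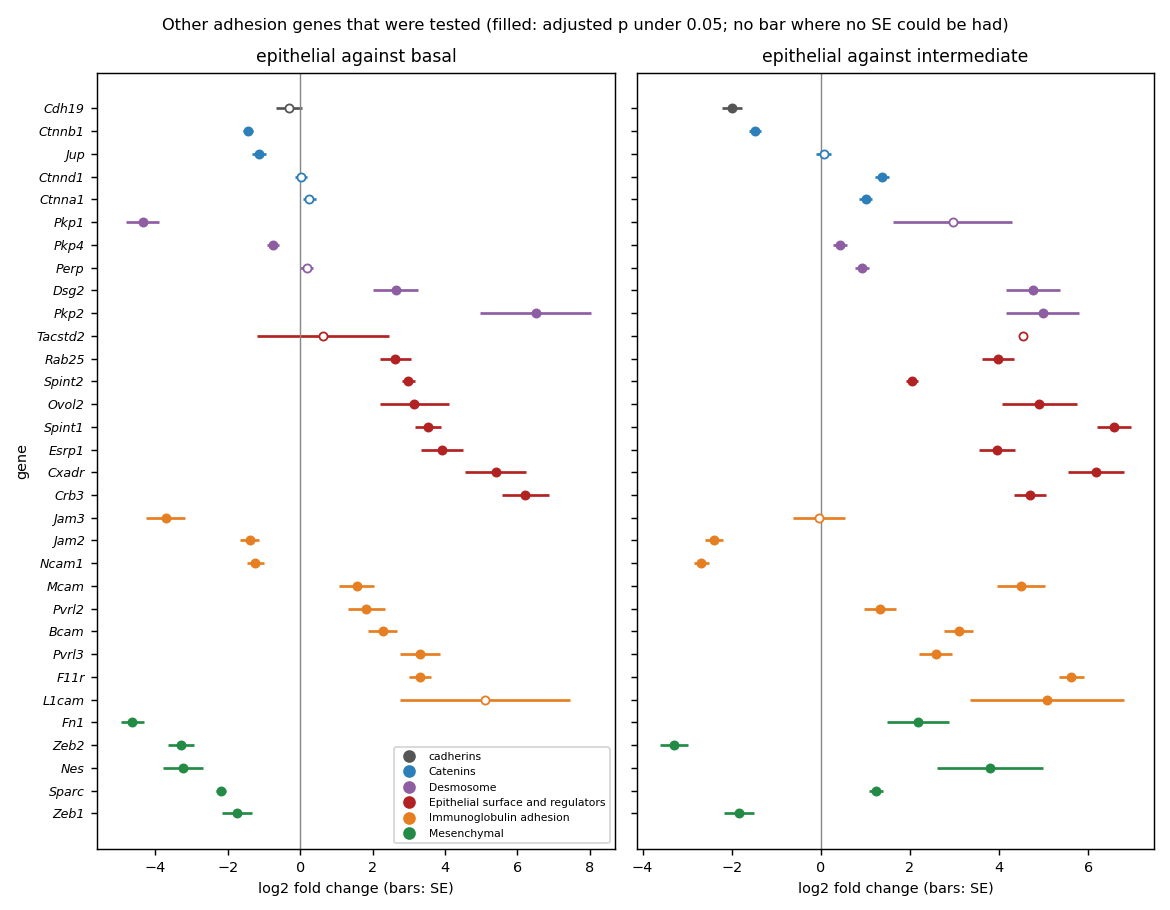
Log2 fold change (bars SE, filled where the adjusted p was under 0.05) of the 32 tested genes of the wider adhesion list, epithelial types against basal-like cells on the left and against intermediate-like cells on the right. The epithelial surface genes lie right of 0 in both panels, and the 5 mesenchymal genes lie left of 0 on the left with only Zeb1 and Zeb2 left of 0 on the right.

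Over the 12 sums of capture and type, the genes whose log2 CPM was closest to Cdh1 by Pearson's r were Pcca (0.99), Col27a1 (0.98) and Tmem119 (0.97). Epcam was closest to F11r (0.99), Sorl1 (0.99) and Fam20a (0.98), Prom2 to Ank3, Igf1 and Kcnk1 (all 0.98), and Dsp to Qsox1 (0.96), Secisbp2l and Tspan1 (both 0.95). Cdh2 was closest to Pax3 (0.98), Atp6v0a1 and Mitf (both 0.96), Alcam to Wnk2, Fam20c (both 0.98) and Plppr4 (0.97), and Vim, with lower values, to Ebpl (0.87), Arhgap17 (0.86) and Mtmr4 (0.85). The 12 sums come from 4 types and 3 captures that share libraries, and the values are descriptive. Pax3 is among the markers that named the intermediate-like clusters.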

How the data were processed

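Counts of UMIs per gene and barcode were deposited by the authors, made with Cell Ranger 2.0.0 on mm10 per the labels; the gene annotation, and whether intronic reads were counted, are not given in the sources used here. Barcodes with at least 200 genes were kept, and 1 to 20 doublets per capture of cells and 978 nuclei, called with scanpy 1.11.5, were removed. Cells and nuclei were clustered separately in Seurat 5.3.0 (R 4.3.3; 42 and 40 components, resolution 0.8), without the 8 adhesion genes or the wider adhesion list. Clusters were named from marker lists. The naming rule was revised after the clusters, and the adhesion gene levels in them, had been seen, but before any test between types. The 8 genes and all lists were chosen with earlier results of these data known.

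UMIs were summed per capture and type (at least 5 cells), giving 12 sums of 81491 to 2889312 UMIs, and tested with edgeR 4.0.16 (quasi-likelihood, TMM scaling, capture as a block) over 6402 genes that passed its filter. The captures pair the sums: deviations from type means correlated at 0.022 to 0.281 in the 18 pairs from the same capture, against -0.238 to 0.055 in the other 36 pairs. On simulated counts for epithelial against basal sums, 63 of the 100 genes given a change of 2-fold were called by edgeR, as were 96 of the 100 given one of 4-fold, with 10 false calls over 5387 genes. The simulated sums had the same spread for every gene, no capture effect and no marker RNA of other types. These rates therefore need not hold for the real sums. The wider genes named were, from each sublist, the 2 with the largest change in each direction among those called in either epithelial comparison, and, for each of the 8 genes, the 3 with the highest Pearson's r. Alternatives were DESeq2 1.42.0, other scaling, filters and clustering settings, leaving out each capture, and other sets of basal-like cells, some added after seeing the data.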

Additional observations from a re-analysis of the deposited data

How the results depend on the processing

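The count of adhesion genes called between basal-like and intermediate-like cells was 3 with DESeq2, and that between marginal-like and spindle/root-like cells was 2 without capture 2 and 6 with an unnamed mixed cluster counted as marginal-like, an alternative chosen after seeing the data. Over all genes DESeq2 called 1547 between basal-like and intermediate-like cells, against 2245 with edgeR. Leaving out each capture in turn gave 5 to 6 called genes (epithelial against basal), 5 (epithelial against intermediate), 5 to 6 (basal against intermediate) and 2 to 4 (marginal against spindle/root). The calls over all genes with a capture left out are not given beside these counts. Without the replicate block the calls of Dsp (0.55, adjusted p = 0.0514) and Vim (-1.17) between basal-like and intermediate-like cells and of Vim between marginal-like and spindle/root-like cells (-2.38, adjusted p = 0.0710) were lost. With basal-like cells of 1 cluster the direction turned for Cdh2 against the epithelial types (0.031) and for Epcam (-0.82) and Prom2 (-1.30) against intermediate-like cells, as it did with 20 components for Epcam (-0.93) and Prom2 (-0.81). With marginal-like cells alone Vim against basal-like cells was -0.56, and with spindle/root-like cells alone Alcam against basal-like cells was -0.040 and Vim against intermediate-like cells 0.55. With a limit on mitochondrial reads the log2 ratio of Vim in marginal-like to basal-like nuclei was 0.19. Its direction had turned from that of the main levels (6.84 CPM in marginal-like and 17.5 CPM in basal-like nuclei). The cause was not tested. At resolution 0.4 no cluster of cells was named marginal-like or spindle/root-like and no nuclei basal-like, so those comparisons gave no value. Spindle/root-like cells numbered 5 to 18 per capture, and Cdh2 had 4 UMIs in them.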

Other observations

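Outside the strial layers, Cdh11 and Vim reached higher levels in some types. An unnamed cluster of 43 nuclei, with osteoblast markers scoring first, held Cdh11 at 1043 CPM (829 to 1297, from 81 UMIs) against 78.3 CPM in fibrocyte-like nuclei (43.8 to 129). Vim stood at 634 CPM in B cell-like cells, at 351 CPM in fibrocyte-like cells (280 to 436), and at 855 CPM in neutrophil-like cells (681 to 1061). In nuclei it stood at 121 CPM in B cell-like (89.9 to 160) and 204 CPM in neutrophil-like nuclei (142 to 283), but at 20.9 CPM in fibrocyte-like nuclei (5.69 to 53.5), under the 37.3 CPM of intermediate-like nuclei.

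Some unnamed cells carried adhesion genes of the named layers. A cluster of 51 unnamed cells, with fibrocyte markers scoring first and 3692 CPM of basal markers, held Cdh1 at 559 CPM (487 to 639) and Alcam at 231 CPM, with Epcam at 2.60 CPM from 1 UMI. A cluster of 137 unnamed cells with 14181 CPM of intermediate and 4879 CPM of marginal markers held Prom2 at 379 CPM and Epcam at 61.7 CPM. These clusters entered no comparison as reported, and a mixed cluster was counted as marginal-like under 1 alternative only.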
